A study of Harpegnathos saltator with 37 samples.

Results

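Gene expression was compared between established and new gamergates of the ant Harpegnathos saltator. Gamergates are workers that win dominance duels, mate and take over egg laying in a nest without a queen. The samples were the 6 central brain libraries of dominant gamergates collected 120 days after isolation from the mother colony and the 5 of gamergates collected at day 20, so 11 of the 37 libraries in the series, chosen by caste and day in the labels. All ants were callow females when they were placed with males in nests that held neither queen nor gamergate. At day 120 gamergate status was scored by mature oocytes, whereas for day 20 the labels mention daily watching of duels in the opening weeks. For comparison the series holds 9 hunting workers at day 120 and 4 workers at day 20 from the same kind of nest. The labels name no transgene, mutant or drug for any group. The tissue was the central brain, dissected free of optic lobes, gnathal ganglion and most of the antennal lobes. Nest of origin and pooling of brains are not given per library, and the replicates may therefore not be independent. In that case a p-value reflects no more than the scatter of the libraries.

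The ageing of a social insect brain and the reproductive state of its owner are both tied to the endocrine axis that links brain, fat body and ovary. Insulin-like peptides from neurosecretory cells act through the insulin receptor, Akt and TOR on growth and lipid stores. The fat body, the insect counterpart of liver and adipose tissue, secretes yolk protein precursors, storage hexamerins and the lipid carrier apolipophorin into the blood. Juvenile hormone and ecdysone, which drive moulting in larvae, regulate reproduction and behaviour in adults through nuclear receptors and the transcription factor Kr-h1.

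Depth was 10.46 to 17.29 M reads in the day 120 gamergates and 9.2 to 32.9 M in the day 20 gamergates, as recovered from the deposited FPKM values (reads scaled by gene length and library size). All day 20 libraries were sequenced in 1 run, and at day 120 gamergate replicate 1 belonged to another run and replicates 2 to 6 to yet another. No run held both days, so no within-run value of the day difference exists, and day and sequencing run cannot be told apart. Between the runs at day 120, which hold both castes, limma called 1 of 9986 genes (0.01%), and 780 had an unadjusted p under 0.05. The first principal component of the log values, over the libraries of both castes at day 20 and day 120, held 36.1% of the variance. On it the day 120 gamergates lay between 0.15 and 0.27 and the day 20 gamergates between -0.36 and -0.11. Gamergate replicates 1 and 5 of day 20 and hunting workers 2, 3 and 7 stood apart from their groups on this component. These hunting workers of day 120 lay at -0.09, -0.28 and -0.14, near or inside the day 20 gamergate range. The other hunting workers lay between 0.12 and 0.24, and day 20 workers between -0.24 and -0.09. Counts without the 5 libraries that stood apart, an alternative added after the data were seen, are given below. Neuronal markers were present in every library, with a summed level of 321 to 347 FPKM for 5 of 6 markers in day 120 gamergates and 258 to 568.5 FPKM in day 20 gamergates. The odorant co-receptor Orco was at or near 0 throughout, at most 0.0228 FPKM at day 120 and 0.02 FPKM at day 20.

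In gamergates 4543 of 9986 genes (45.5%) differed between day 120 and day 20 at an adjusted p under 0.05, by limma on log2(FPKM + 0.5) with Benjamini-Hochberg adjustment over all genes tested. Of these, 2290 (22.9%) were higher and 2253 (22.6%) lower at day 120. Most differences were small, with a median size of 0.53 on the log2 scale among the called genes, and 270 exceeded 2-fold, 112 higher and 158 lower. The groups did not overlap for 2892 genes (29.0%). Without the 5 libraries that stood apart 3308 genes were called, of which 2780 were also called with them, all in the same direction. Scaling to TPM, which gives every library the same total, moved the median of all genes from -0.01 to 0.14. The split became 2648 higher and 1104 lower. In bulk tissue, fewer cells of a type and less RNA per cell cannot be told apart.

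The day difference followed gene length. When the genes were divided by length into 5 equal classes, 118 of the shortest class were higher and 827 lower at day 120, with a median of -0.37, and of the longest 903 were higher and 115 lower, with a median of 0.29. Across genes, Spearman's rho between the log2 difference and relative gene length was 0.47 in gamergates and 0.43 in workers, a description over genes that share libraries. In each library, the median deviation of the longest class was subtracted from that of the shortest. The result ranged from -0.52 to -0.23 in the day 120 gamergates and from 0.02 to 0.61 in the day 20 gamergates, without overlap. Hunting workers 2, 3 and 7 of day 120, from the same runs as the day 120 gamergates, stood at 0.26, 0.63 and 0.25. The other hunting workers ranged from -0.44 to -0.17. A fit with the length trend of each library removed was therefore added after this was seen. It called 3884 genes, 2995 of them shared, and its counts are given with the lists below.

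**Figure D1:**
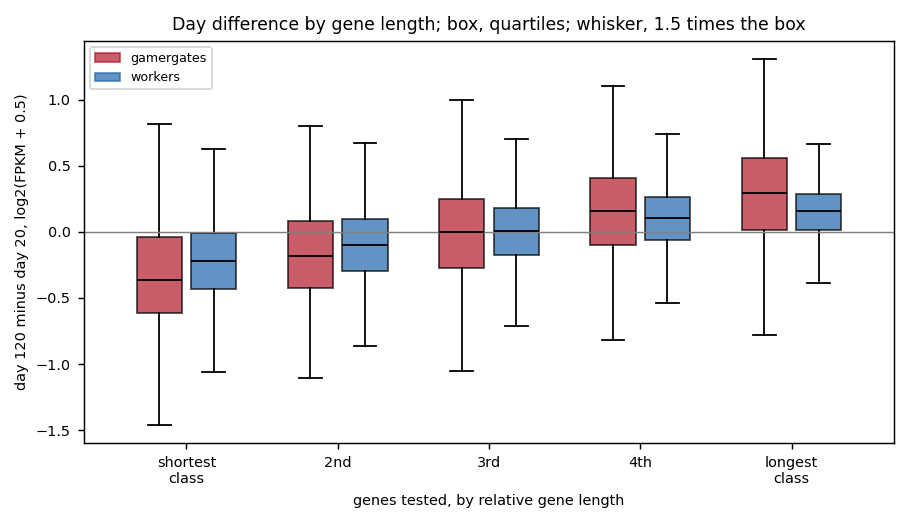
Day 120 minus day 20 difference on the log2(FPKM + 0.5) scale (vertical axis) for all genes tested, in 5 equal classes of relative gene length (horizontal axis), gamergates in red and workers in blue. Boxes give quartiles, lines medians and whiskers reach 1.5 times the box. The gamergate median is -0.37 in the shortest and 0.29 in the longest class.

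Yolk and lipid carrier genes were among the largest increases at day 120. Of 12 fat body and yolk genes tested, 5 were higher and none lower (41.7% called), where 45.5% of all genes were called. Their median was 0.38, against -0.01 for all genes. The median was 0.45 with the length trend removed, and 4 genes were higher there. The lipid carrier gene apolpp (LOC105186170), encoding apolipophorin, had a lowest, median and highest level of 327, 424 and 556 FPKM in day 120 gamergates, against 124, 221, 198, 284 and 152 FPKM in day 20 gamergates. Every day 120 library was above every day 20 library. The means were 440.2 ± 91.3 FPKM (SD, n = 6) at day 120 and 196 ± 62.6 FPKM (n = 5) at day 20, a log2 difference of 1.20 (SE 0.21, adjusted p = 0.000159).

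Vgn (LOC105181726), listed with the yolk genes by its symbol, which the reference does not expand, had a lowest, median and highest level of 189, 868 and 3418 FPKM in day 120 gamergates, against 75.3, 15.3, 23.4, 532 and 131 FPKM in day 20 gamergates. Both groups were widely spread and overlapped, since day 20 replicate 4 exceeded 3 of the 6 day 120 libraries. The log2 difference was 3.35 (SE 1.01, adjusted p = 0.00905). Hex70a (LOC105185161), a storage hexamerin by its name, was 0.0659 FPKM in replicate 1, the library of the other run, and 14.1, 0, 7.30, 46.7 and 22.5 FPKM in the other day 120 gamergates, against 0.302, 0.482, 0.506, 0.42 and 0.267 FPKM in day 20 gamergates. Only 4 of the 6 day 120 libraries, all from the same run, were above the day 20 range, and the remaining 2 lay below it. The log2 difference was 2.68 (SE 0.71, adjusted p = 0.00368), -0.65 for replicate 1 alone, and it was not called by limma-voom on recovered reads (adjusted p = 0.329). The other called members were FASN1, the fatty acid synthase, and Apoltp, a lipid transfer particle protein, at 4.51 FPKM in day 120 gamergates and 2.75 FPKM in day 20 gamergates. Transferrin 1 (Tsf1), the most abundant member, averaged 2756 FPKM at day 120 and 2192 FPKM at day 20 and did not pass the test (log2 difference 0.33). Summed over 4 of 5 fat body markers, all of them also members of this list, the level was 2837 to 3573 FPKM at day 120 and 2095 to 2548 FPKM at day 20. The part of fat body RNA in these results was not tested.

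**Figure D2:**
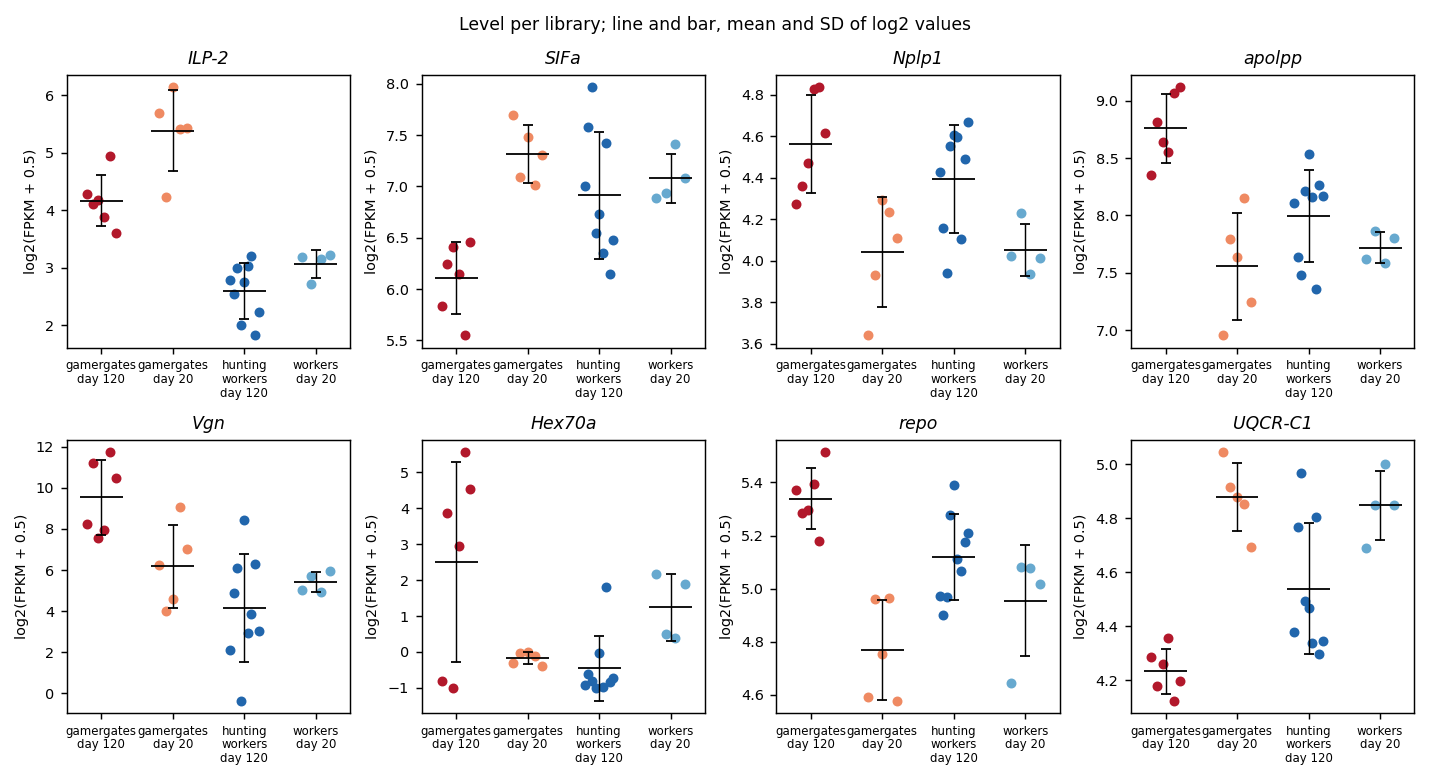
Level of 8 genes on the log2(FPKM + 0.5) scale (vertical axes) in single libraries (points) of gamergates at day 120 and day 20, hunting workers at day 120 and workers at day 20, with the mean (line) and SD (bar) of log2 values. For apolpp, SIFa, repo and UQCR-C1 the gamergate groups do not overlap, for ILP-2, Vgn, Hex70a and Nplp1 they do.

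Peptide hormone genes moved in both directions. Of 13 neuropeptide genes tested 3 were lower at day 120, namely ILP-2, SIFa and NPF, and 2 were higher, Nplp1 and Ms. In all 38.5% of the list were called, below the 45.5% of all genes. The list's median was -0.49, and -0.29 with the length trend removed. ILP-2 (LOC105188195), an insulin-like peptide, had a lowest, median and highest level of 11.8, 17.1 and 30.2 FPKM in day 120 gamergates, against 51.3, 18.4, 70.4, 42.3 and 42.7 FPKM in day 20 gamergates. All but 1 of the day 20 libraries were above all of day 120, and replicate 2 of day 20 lay inside the day 120 range. The means were 18.3 ± 6.39 FPKM (n = 6) at day 120 and 45.0 ± 18.8 FPKM (n = 5) at day 20, a log2 difference of -1.22 (SE 0.27, adjusted p = 0.000974). Over all alternatives tried the difference ran from -1.51 to -1.03 and kept its call. In both day groups gamergates stood above workers, which averaged 5.85 ± 1.97 FPKM in hunting workers at day 120 (n = 9) and 7.99 ± 1.31 FPKM in workers at day 20 (n = 4).

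SIFa (LOC105187830), a peptide that in Drosophila is made in a few neurons and acts on feeding and courtship, had 46.3, 72.9 and 87.2 FPKM as lowest, median and highest level at day 120, against 206, 136, 178, 128 and 158 FPKM at day 20. The gamergate groups were fully separate (log2 difference -1.21, SE 0.30, adjusted p = 0.00235). NPF, the insect neuropeptide F, averaged 5.97 FPKM at day 120 and 12.0 FPKM at day 20 (log2 difference -0.84, adjusted p = 0.0404). Nplp1 (LOC105192288), a neuropeptide precursor, averaged 23.4 ± 3.93 FPKM at day 120 and 16.2 ± 2.88 FPKM at day 20 (log2 difference 0.52, SE 0.15, adjusted p = 0.00792). Its call was lost without the libraries that stood apart (adjusted p = 0.055). Ms, which encodes myosuppressin, was higher by 0.47 (adjusted p = 0.0282), and no peptide gene was higher without the libraries that stood apart. Corazonin (Crz), a peptide linked to worker behaviour in this species, averaged 20.9 ± 10.2 FPKM at day 120 and 29.0 ± 12.1 FPKM at day 20 and was not called (log2 difference -0.52, adjusted p = 0.319). Among 8 peptide receptors tested, FMRFaR and rk, the bursicon receptor, were higher and none lower, with log2 differences of 0.33 and 0.61. That is 25% of the list, where 22.9% of all genes were higher and 22.6% lower. FMRFaR (adjusted p = 0.0477) lost its call under 14 of 25 alternatives, among them the length correction, where 1 receptor was higher. Eth (LOC105187829), the ecdysis triggering hormone gene, was low, with 2 to 16 reads per library at day 120 against 15 to 89 reads at day 20. Its level was 0.413 ± 0.289 FPKM at day 120 and 2.59 ± 0.94 FPKM at day 20 (log2 difference -1.77, SE 0.31, adjusted p = 0.000164), without overlap.

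Of 15 insulin and TOR pathway genes tested 6 were higher at day 120 and 2 lower, so 53.3% were called, against 45.5% of all genes. The higher genes were the insulin receptor substrate chico, the kinases Akt and Tor, the TOR complex subunit raptor, and Tsc1 and gig, whose products together inhibit TOR. The lower genes were ImpL2, a secreted protein that binds insulin-like peptides, and Thor, the translation inhibitor 4E-BP. Tor (LOC105190144) had 11.1, 12.8 and 13.9 FPKM as lowest, median and highest level at day 120, against 4.56, 8.45, 7.03, 8.07 and 5.18 FPKM at day 20. Its groups did not overlap (log2 difference 0.91, SE 0.15, adjusted p = 8.1e-05). ImpL2 averaged 9.29 ± 0.81 FPKM at day 120 and 16.7 ± 3.53 FPKM at day 20 (log2 difference -0.79, adjusted p = 0.027). It lost its call under 5 of 25 alternatives, among them TPM, the length correction and leaving out day 20 replicate 2 or 4. Thor averaged 70.1 ± 11.6 FPKM at day 120 and 93.3 ± 14.2 FPKM at day 20 (adjusted p = 0.036), a call lost under 15 alternatives. Akt differed by 0.21 (adjusted p = 0.0298) and lost its call under 8. The list's median was 0.24, and 0.03 with the length trend removed, where 3 genes were higher and 2 lower.

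Of 15 juvenile hormone and ecdysone genes tested 3 were higher and none lower, with a median of 0.19, where 22.9% of all genes were higher. The ecdysone-responsive transcription factor br (LOC105189635), broad, had 7.35, 7.92 and 9.55 FPKM as lowest, median and highest level at day 120, against 2.55, 4.20, 4.52, 3.37 and 5.91 FPKM at day 20 (log2 difference 0.95, SE 0.30, adjusted p = 0.0111). Its groups did not overlap. The nuclear receptor Hr39 was higher by 0.49 (adjusted p = 0.0293), a call lost under 8 of 24 alternatives, among them limma-voom, the length correction and leaving out the libraries that stood apart. The receptors Ecr and usp had adjusted p of 0.113 and 0.99. Kr-h1 (LOC112589664) was low in gamergates of both days, 0.681 ± 0.523 FPKM at day 120 and 0.84 ± 1.43 FPKM at day 20 (adjusted p = 0.749). The juvenile hormone methyltransferase jhamt ranged from 0.0762 to 6.14 FPKM at day 120 and from 0.039 to 5.11 FPKM at day 20 and was not called (adjusted p = 0.424). With the length trend removed the list had 1 gene higher and 3 lower.

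Of 15 biogenic amine genes tested 5 were higher and 1 lower, where 45.5% of all genes were called. The higher genes were the octopamine receptor Oamb, the dopamine receptors Dop2R and Dop1R2, the serotonin receptor 5-HT2A and e, the beta-alanyl amine synthase ebony. Oamb (LOC105188009) averaged 13.6 ± 0.69 FPKM at day 120 and 8.54 ± 1.96 FPKM at day 20, without overlap (log2 difference 0.67, SE 0.21, adjusted p = 0.00944). Vmat (LOC105187915), which loads monoamines into vesicles, averaged 69.1 ± 7.14 FPKM at day 120 and 121 ± 50.5 FPKM at day 20 (log2 difference -0.71, SE 0.20, adjusted p = 0.00614). Its groups overlapped, since day 20 replicate 4 had 68.4 FPKM, and the call was lost without the libraries that stood apart (log2 difference -0.30, adjusted p = 0.19). The list's counts depended on day 20 replicate 1, without which 0 genes were higher and 1 lower. After length correction 3 were higher and 1 lower, and without the libraries that stood apart 2 and 0.

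The respiratory chain had the largest share of called members among the lists with more than 3 genes. Of 51 oxidative phosphorylation genes tested 44 were lower and 2 higher at day 120, with a median of -0.67. Called genes were 90.2% of the list, against 45.5% of all genes. The groups did not overlap for 43 of the 51, where this held for 29.0% of all genes. All 8 complex III genes, all 3 complex IV genes, 24 of 28 complex I genes and 7 of 9 ATP synthase genes were lower. The lower genes included UQCR-C1 (LOC105182818), a core subunit of complex III, with 16.9, 18.2 and 20.0 FPKM as lowest, median and highest level at day 120, against 32.5, 29.7, 29.0, 28.4 and 25.4 FPKM at day 20 (log2 difference -0.64, SE 0.12, adjusted p = 0.000236). The exceptions were SdhA, the flavoprotein of complex II, and ND-75, the largest complex I subunit, higher by 0.63 and 0.40. Their relative lengths, 1.81 and 1.19 where the median gene is 1, exceed the list's median of 0.61. The other complex II members SdhB and SdhD were lower, at -0.81 and -0.67. Of the members, 25 belonged to the shortest class of genes and 3 to the longest. With the length trend removed the median was -0.46, with 39 genes lower and 1 higher, and without the libraries that stood apart it was -0.56, also with 39 lower and 1 higher. Under TPM scaling the median was -0.52, with 36 genes lower and 2 higher. The summed level was 1462 to 1732 FPKM at day 120 and 2137 to 2905 FPKM at day 20.

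**Figure D3:**
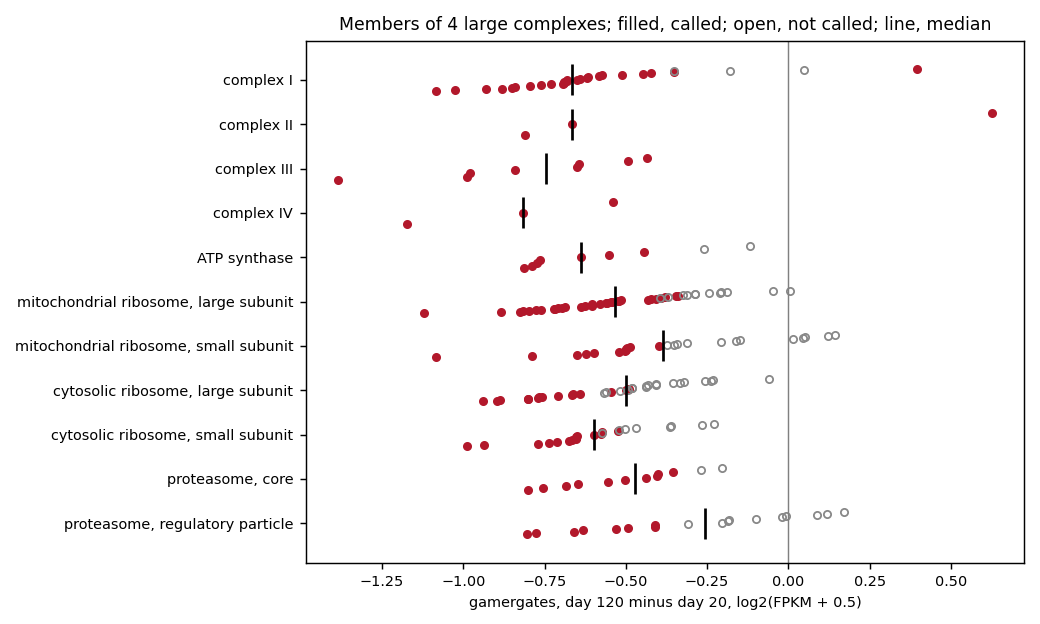
Day 120 minus day 20 difference in gamergates on the log2(FPKM + 0.5) scale (horizontal axis) for each member of 4 large assemblies, by subcomplex (vertical axis). Filled points passed the test, open points did not and lines are medians. Members of the respiratory complexes lie mostly below 0, with SdhA at 0.63 and ND-75 at 0.40 to the right.

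Of 68 mitochondrial ribosomal protein genes 44 were lower and none higher (median -0.50), 32 of 44 in the large and 12 of 24 in the small subunit. Of all genes 22.6% were lower and 22.9% higher. mRpL43 averaged 11.9 ± 0.64 FPKM at day 120 and 18.3 ± 1.53 FPKM at day 20 (log2 difference -0.60, adjusted p = 0.00139). With the length trend removed 35 were lower and 1 higher (median -0.29), and without the libraries that stood apart 24 were lower. Of 56 cytosolic ribosomal protein genes 30 were lower and none higher (median -0.56). That count rested on few libraries and on length, with 9 lower after length correction, 7 without day 20 replicate 1, 11 without day 20 replicate 5 and 3 without the libraries that stood apart. RpS30, the ribosomal protein with the largest difference, averaged 12.7 ± 1.41 FPKM at day 120 and 27.6 ± 12.0 FPKM at day 20 and lost its call there (adjusted p = 0.101). Of 30 proteasome genes 18 were lower and none higher (median -0.41), 10 of 12 in the proteolytic core and 8 of 18 in the regulatory particle. Rpn12 had a log2 difference of -0.81 and Prosbeta7 of -0.80. After length correction 13 were lower and 3 higher, and 12 were lower without day 20 replicate 1. Of 38 translation factors 15 were lower, among them eIF1, and 7 higher, among them eIF3a, the scaffold of its complex. After length correction 16 were lower and 8 higher, and without the libraries that stood apart 8 were lower and 2 higher. Under TPM scaling 26 mitochondrial and 14 cytosolic ribosomal protein genes were lower and none higher. On that scale 11 proteasome genes were lower and 1 higher, and 9 translation factors were lower and 7 higher.

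Several lipid synthesis genes were higher. Of 19 lipid metabolism genes tested 10 were higher and 2 lower, with a median of 0.33, where 22.9% of all genes were higher and 22.6% lower. FASN1 (LOC105185168) had 49.0, 68.2 and 76.9 FPKM as lowest, median and highest level at day 120, against 20.4, 45.9, 34.6, 34.3 and 22.9 FPKM at day 20, without overlap (log2 difference 1.11, SE 0.20, adjusted p = 0.000213). ACC, the acetyl-CoA carboxylase that precedes it, was higher by 0.80, SCAP, the escort of the lipid-sensing factor SREBP, by 0.78, and Lpin, a phosphatidate phosphatase, by 0.90. Genes of lipid breakdown were among the higher ones as well, the lipase bmm by 0.48 and the carnitine transferase whd by 0.52. With the length trend removed 5 were higher and 1 lower (median 0.21), and without the libraries that stood apart 6 and 1. Glycolysis and citric acid cycle genes were mixed, with 5 of 27 higher and 6 lower, and with 4 and 3 after length correction. No gene was higher and 7 were lower without the libraries that stood apart, whereas under TPM scaling 7 were higher and none lower. Antioxidant genes were mixed too, 5 of 17 higher and 6 lower, and 2 and 4 after length correction.

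**Figure D4:**
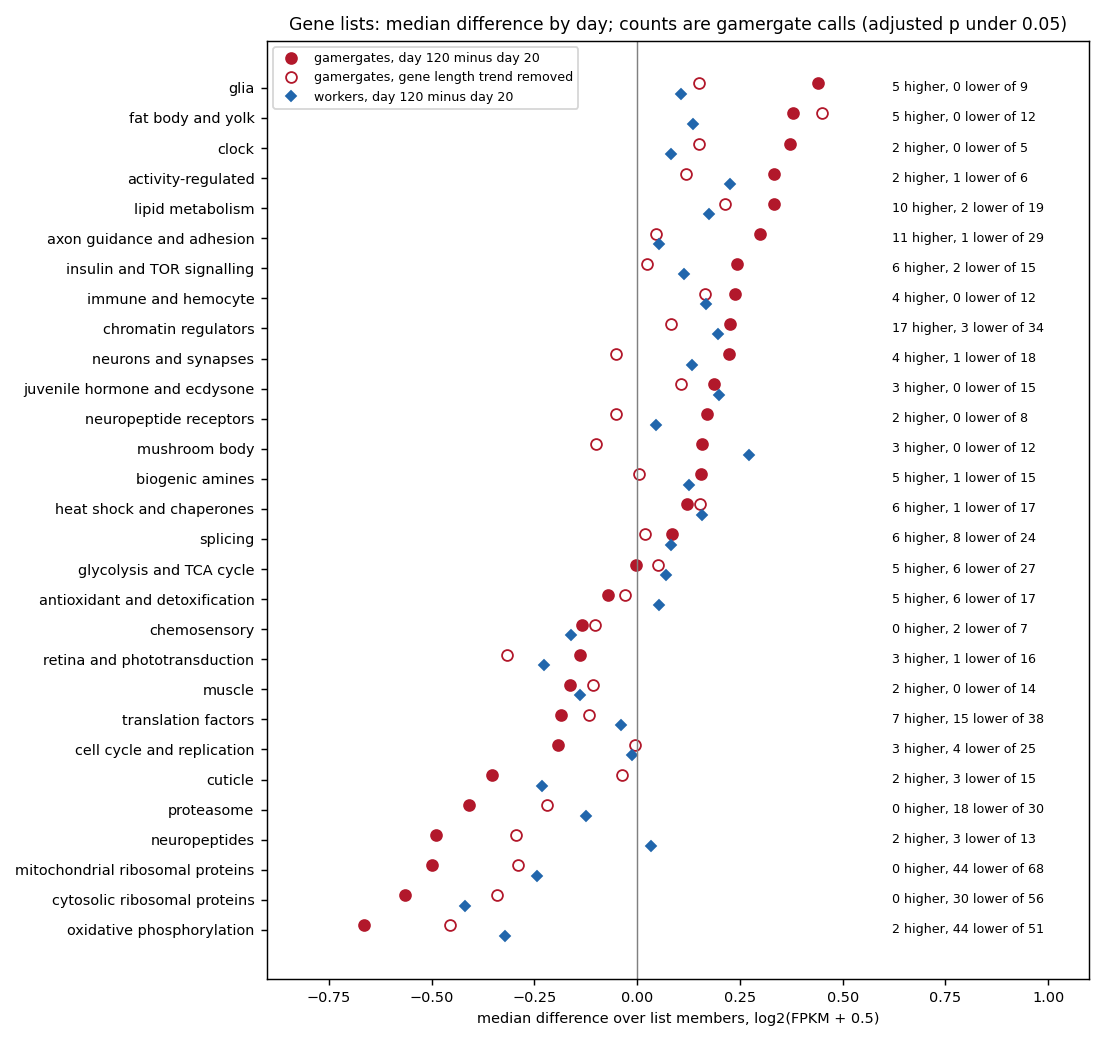
Median day 120 minus day 20 difference on the log2(FPKM + 0.5) scale (horizontal axis) over the members of each gene list (vertical axis), in gamergates (filled), in gamergates with the length trend removed (open) and in workers (diamonds). Numbers give gamergate calls. Oxidative phosphorylation has the lowest gamergate median, -0.67, and glia the highest, 0.44.

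Glial genes were higher in part. Of 9 tested 5 were higher and none lower (median 0.44, and 0.15 with 3 higher after length correction). Of all genes 22.9% were higher and 22.6% lower. The glial transcription factor repo (LOC105181500) had 35.7, 39.8 and 45.2 FPKM as lowest, median and highest level at day 120, against 23.6, 30.6, 26.5, 30.7 and 23.4 FPKM at day 20, without overlap (log2 difference 0.57, SE 0.11, adjusted p = 0.00034). Gli and Nrx-IV, components of the septate junctions that seal the blood-brain barrier, were higher by 0.64 and 0.77. The abundant glutamine synthetase Gs2 and glutamate transporter Eaat2 had differences of -0.06 and -0.05, and the barrier receptor moody -0.48, none of them called. The fixed glial markers, 4 of 5 found, summed to 125 to 164 FPKM at day 120 and 96.6 to 160 FPKM at day 20.

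Of 18 neuron and synapse genes 4 were higher, namely Syn (synapsin), VGlut, VGAT and Rop, and cpx (complexin) was lower, against 22.9% higher and 22.6% lower among all genes. Without the libraries that stood apart 7 were higher and none lower, and the calls of cpx and Rop were lost. Syn (LOC105185002) averaged 163 ± 14.4 FPKM at day 120 and 97.6 ± 25.6 FPKM at day 20 (log2 difference 0.77, adjusted p = 0.00554). The list's median was 0.22 and turned to -0.05 with the length trend removed, where 3 were higher and 4 lower. Of 29 axon guidance and adhesion genes 11 were higher and 1 lower (median 0.30), 25 of them in the longest class of genes. After length correction 5 were higher and 7 lower, and without day 20 replicate 1 it was 4 and 0. Of 12 mushroom body genes 3 were higher, a share near the 22.9% of all genes, and none without day 20 replicate 1. After length correction none was higher and 1 lower, with a median of -0.10. Of 34 chromatin regulators 17 were higher and 3 lower (median 0.23), and 15 and 5 after length correction. The remodelling ATPase dom (LOC105183375) had 14.6, 16.1 and 17.6 FPKM as lowest, median and highest level at day 120, against 5.41, 8.36, 8.20, 8.36 and 8.57 FPKM at day 20 (log2 difference 1.02, SE 0.20, adjusted p = 0.000494). Iswi was higher by 0.95 and the H3K27 methyltransferase E(z) lower, at -0.36. Splicing genes moved in both directions, with the core factors Prp8 and Sf3b1 higher by 1.06 and 0.74 and the small proteins SmF and SmD2 lower, at -0.84 and -0.41, for 6 higher and 8 lower of 24, and 7 and 4 after length correction.

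In the remaining lists the called shares were 33.3% for immune, 40% for clock, 41.2% for chaperone and 28% for cell cycle genes. They were 50% for activity-regulated, 14.3% for muscle and 25% for retina genes, against 45.5% of all genes. Of 12 immune genes 4 were higher and none lower, also after length correction, with the JAK-STAT pair hop and Stat92E at 0.67 and 0.61. Of 5 clock genes Clk and cwo were higher, and per was not called (adjusted p = 0.32). Clk (adjusted p = 0.0448) lost its call under 14 of 25 alternatives, cwo under the length correction, and no clock gene was called after that correction. Of 17 chaperones 6 were higher and 1, Hsp90, lower. After length correction it was 5 and 1, and without the libraries that stood apart 0 and 2, where Hsp90 itself was not called (adjusted p = 0.0846). Of 25 cell cycle genes 3 were higher, the replication helicase subunits Mcm2, Mcm6 and dpa, and 4 lower, and 4 and 4 after length correction. Of 6 activity-regulated genes kay and CrebA were higher and Atf3 lower, and Hr38 was not called (adjusted p = 0.2). Without the libraries that stood apart Atf3 lost its call, and after length correction 1 was higher and 2 lower. Of 14 muscle genes SERCA and flr were higher, calls lost under 12 and 5 of 25 alternatives, while the contractile markers summed to 19.9 to 150 FPKM at day 120 and 24.6 to 49.6 FPKM at day 20. After length correction 1 muscle gene was higher. Of 16 retina genes eya and rdgA were among 3 higher and Ggamma30A was lower, and 3 and 3 after length correction. The yellow family had 1 gene tested, not called.

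Among the largest single decreases were genes that were abundant but very uneven at day 20. The cuticle list member apd-3l (LOC105189609) had 0.482, 0.444, 0, 0, 0 and 0 FPKM at day 120, against 6.85, 2953, 72.7, 1573 and 1439 FPKM at day 20. LOC112588745 and LOC105189843, which the reference gives no name, shared that pattern across the day 20 libraries, with 38.4 to 6022 FPKM and 13.8 to 2542 FPKM there, and at most 0.944 and 0.145 FPKM at day 120. In each of the 3 genes day 20 replicate 1 was the lowest of its group and replicates 2, 4 and 5 the highest. The log2 differences of -9.03, -9.94 and -9.57 depend on the pseudocount of 0.5, since day 120 libraries held 0 to 20 reads. All 3 were also lower in hunting workers than in day 20 workers (log2 differences -7.03, -7.67 and -7.26). In the cuticle list as a whole 3 of 15 genes were lower and 2 higher (2 and 1 after length correction). The called share was 33.3%, against 45.5% of all genes. CPR1 was lower, at 1.44 ± 0.57 FPKM at day 120 against 6.28 ± 3.28 FPKM at day 20 (adjusted p = 0.00113).

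Obp10 (LOC105188059), an odorant binding protein, had 249, 295 and 319.5 FPKM as lowest, median and highest level at day 120, against 881, 543, 669.9, 464 and 985 FPKM at day 20 (log2 difference -1.24, SE 0.25, adjusted p = 0.000524). Obp11 was the other lower gene of 7 chemosensory genes tested, where 22.6% of all genes were lower. After length correction 2 were lower and 1 higher. Reads of near-identical family members may have been divided between genes. The histamine-gated channel ort (LOC105180831), through which optic lobe neurons receive photoreceptor input, averaged 1.56 ± 0.47 FPKM at day 120 and 6.59 ± 1.33 FPKM at day 20 (log2 difference -1.79, SE 0.41, adjusted p = 0.00139). Its groups did not overlap. Retina and optic lobe markers, 5 of 6 found, summed to 15.8 to 698 FPKM at day 120 and 137 to 567.8 FPKM at day 20, and their part in this result was not tested. The 10 largest decreases among genes with a symbol, separate groups and at least 2 FPKM in the higher group were chosen by that rule. They also included UQCR-6.4, cype and NP15.6, at -1.38, -1.17 and -1.28. The transcription cofactor Ssb-c31a and the RNA polymerase subunit Rpb12 were among them too, at -1.17 and -1.15. Outside these 10, mRpL33 of the mitochondrial ribosome stood at -1.12, also with separate groups.

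The largest increases with separate groups and a symbol were ldd, cue, kug, Cals, nompC, shot, apolpp, Ptr, Chc and Asap, from 1.53 to 1.19 on the log2 scale. cue (LOC105189875) had 4.10, 4.79 and 6.47 FPKM as lowest, median and highest level at day 120, against 1.27, 1.66, 1.96, 1.68 and 1.79 FPKM at day 20 (log2 difference 1.33, SE 0.18, adjusted p = 1.09e-05). Cals, the synaptic cadherin calsyntenin, averaged 133 ± 11.9 FPKM at day 120 and 58.9 ± 19.1 FPKM at day 20, and Chc, the clathrin heavy chain, 35.8 ± 5.51 FPKM at day 120 and 16.3 ± 6.21 FPKM at day 20. The spectraplakin shot, a linker of actin and microtubules, was higher by 1.22 and lost its call without day 20 replicate 1 (adjusted p = 0.0588). nompC, a mechanosensory channel, was higher by 1.24 and kug, an atypical cadherin, by 1.31. Of genes with a LOC number alone, separate groups and a mean of at least 2 FPKM in the higher group, LOC105187584 and LOC105192418 had the largest increases, 1.75 and 1.56, and were called in workers too (1.42 and 1.19).

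To set the gamergate difference beside that of the other caste, hunting workers at day 120 were compared with workers at day 20, which shared the gamergates' runs but no library. Workers had 932 calls (9.33%), 498 higher (4.99%) and 434 lower (4.35%). Of these 741 were also called in gamergates, 16.3% of the gamergate calls and 79.5% of the worker calls, all with the same sign. Without the libraries that stood apart workers had 3386 calls and gamergates 3308. The difference between the castes in the day effect was tested directly, and limma called 0 of 9986 genes (0%, lowest adjusted p = 0.556), with 646 at an unadjusted p under 0.05 and 0 called by limma-voom. Values for single genes are therefore given side by side only. Np, Ssl1 and CPSF2 were named only for a small p of the caste difference, so that p is small by selection. Hex70a and Kr-h1 were fixed names and cue was named for its gamergate difference, but they also met that rule. The log2 difference of ILP-2 was -1.22 in gamergates and -0.48 in workers (unadjusted p of the difference 0.0605). For Vgn it was 3.35 in gamergates and -0.80 in workers (0.00741), and for Hex70a 2.68 in gamergates and -1.25 in workers (0.000467). For Kr-h1 it was 0.19 in gamergates and 2.43 in workers (0.00106), where hunting workers averaged 5.39 ± 3.71 FPKM and day 20 workers 0.352 ± 0.33 FPKM. For apolpp it was 1.20 in gamergates and 0.36 in workers (0.00838), and for cue 1.33 in gamergates and 0.42 in workers (0.00106). Ssl1, a subunit of the transcription factor TFIIH, was lower in gamergates at -0.39 (adjusted p = 7.39e-05) and stood at -0.03 in workers (0.000303). CPSF2, of the mRNA 3′ end processing complex, stood at -0.07 in gamergates and was called higher in workers, at 0.35 (0.000252). Np differed by 0.49 in gamergates and -0.30 in workers (0.00158). Oxidative phosphorylation genes had a median of -0.67 in gamergates and -0.32 in workers. Of the 51, 44 were called lower and 2 higher in gamergates, against 22.6% and 22.9% of all genes. In workers 1 was called lower and 2 higher, against 4.35% and 4.99% of all genes. The limma test of the caste difference gave an unadjusted p under 0.05 for 1 of the 51. For UQCR-C1, hunting workers 2, 3 and 7, which stood apart, had 26.72, 30.79 and 27.47 FPKM. The other hunting workers had 19.18 to 22.02 FPKM, and day 20 workers 25.34 to 31.56 FPKM. Hunting workers 2, 3 and 7 were also the highest of their group for UQCR-6.4, cype and NP15.6, and the lowest for SdhA. How far the worker median and calls of this list depend on these libraries was not tested.

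**Figure D5:**
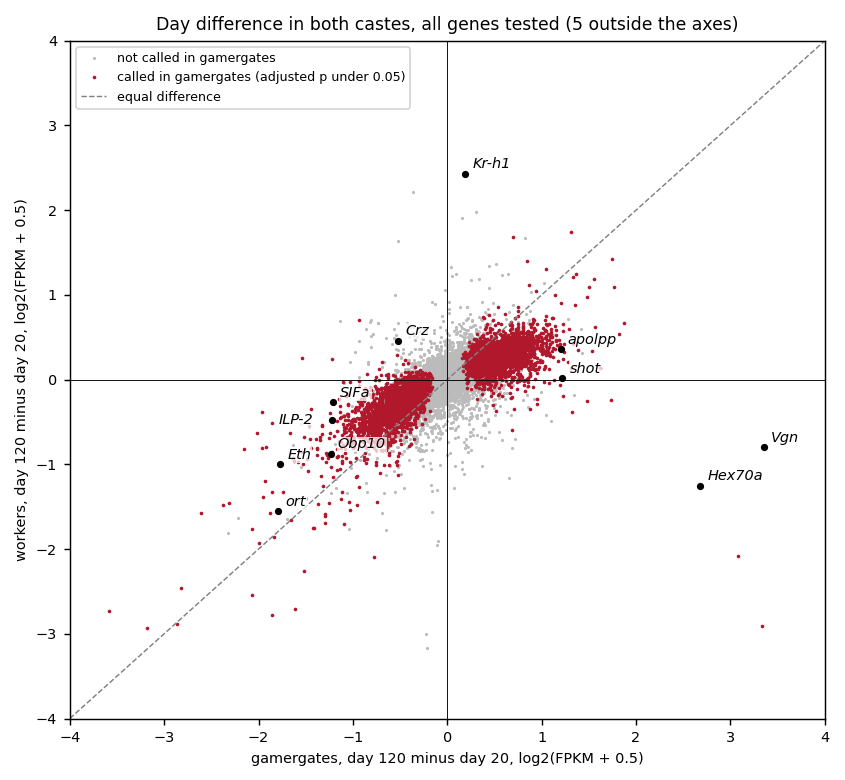
Day 120 minus day 20 difference on the log2(FPKM + 0.5) scale in gamergates (horizontal axis) against workers (vertical axis) for all genes tested, with 5 genes outside the axes. Red points were called in gamergates and the dashed line marks equal differences. Vgn and Hex70a lie at 3.35 and 2.68 in gamergates and below 0 in workers, and Kr-h1 at 0.19 and 2.43.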

How the data were processed

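The authors deposited FPKM values per gene in 1 table of 14001 genes and 37 libraries. Libraries were polyadenylated, strand-specific RNA, per the labels' protocols. The authors used bcl2fastq, STAR and featureCounts, per the submitters' processing notes, with versions and genome build not given in the sources used here. Names came from assembly Hsal_v8.6, which matched 13989 identifiers, 4117 of the genes having a symbol. Low values fell on steps of 1 read, so whole reads were recovered for 13445 of 13445 genes above 0 (tolerance 0.1 read), with relative gene length from the step size.

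The test was limma 3.58.1 in R 4.3.3 (trended empirical Bayes) on log2(FPKM + 0.5), which understates changes of low genes. All 37 libraries entered 1 fit, with a mean per group and a run term within day 120 centred on the gamergates' run make-up. Genes needed 1 FPKM in at least 4 libraries, and p-values were two-sided. The script was tested on simulated data.

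Groups, the 30 gene lists and the naming rule were chosen with earlier results of these data known. The rule took 10 called genes per direction by difference (symbol, separate groups, at least 2 FPKM), up to 3 called members per list, 15 fixed names, 3 per direction by caste difference and 2 LOC genes per direction.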

Additional observations from a re-analysis of the deposited data

Results flagged for a closer look

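In 232 gene and group combinations tested, 14 had a library far from the rest of its group by Dixon's criterion, where chance flags about 1 in 20. Of these 7 concerned day 120 gamergate replicate 1, the only gamergate library of its run. It was highest at 0.944 FPKM for LOC112588745 (others 0.177 to 0.341), 0.145 for LOC105189843 (others 0), 15.5 for RpS30 (11.6 to 12.7), 3.49 for Atf3 (2.36 to 2.7) and 93.3 for Thor (62.2 to 68). It was lowest at 3.11 FPKM for Hr38 (5.79 to 7.07) and 49 for FASN1 (66.5 to 76.9). Day 120 replicate 6 was highest at 24.2 FPKM for cact (17.6 to 19.6) and 8.69 for SCAP (6.79 to 7.45). Day 120 replicate 2 was lowest at 10.6 FPKM for mRpL43 (11.9 to 12.6) and replicate 3 at 9.03 for Keap1 (10.3 to 10.9). At day 20, replicate 1 was lowest at 10.2 FPKM for Stat92E (13.9 to 14.9) and 5.41 for dom (8.2 to 8.57), and replicate 5 at 34.2 for Idh3b (44.6 to 48.6).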

How the results depend on the processing

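The gamergate count of 4543 stayed within 1.5 times under every alternative run, from 3072 without day 20 replicate 1 to 4700 among fits leaving out 1 gamergate or worker library, and 5999 with array weights. The number of calls shared was 3381 under TPM and 3573 under limma-voom. The worker count of 932 was 353 under TPM, 4428 with array weights, 470 under limma-voom, 565 in a fit of only the groups compared, 3386 without the libraries that stood apart and 385 to 1491 leaving out 1 library (lowest without day 20 worker replicate 3, highest without hunting worker replicate 3). The run count of 1 was 2 with no filter, 475 with array weights, 2 under limma-voom, 0 without the libraries that stood apart and 1 to 26 leaving out 1 library (26 without hunting worker 7). The caste difference count of 0 was 0 to 3 leaving out 1 library (3 without day 120 gamergate replicate 3). Deviations of same-numbered gamergate libraries of the 2 days had correlations of -0.07 to 0.22, and worker libraries were not compared in this way. Whether libraries of the same number share a nest or preparation was not tested. With the replicate number as a block the counts were 3835, 37 and 0 for gamergates, workers and runs. Of single genes, usp turned to -0.30 with the length trend removed. Among gene and alternative combinations in gamergates 2738 kept direction and call, 148 lost the call and 3 gained it. The cause was not tested. The lists had 48 medians that moved by more than 1 SD between libraries of the same group and 677 that moved by less. Depth of 9.2 M reads limits genes under 1 FPKM.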

Other observations

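Next to Hex70a in assembly Hsal_v8.6 lie LOC105185204 and LOC105185160, chosen after their values were seen, which the reference gives no name. LOC105185204 ranged from 0 to 49.8 FPKM in day 120 gamergates (median 9.36) and from 0.0259 to 0.911 FPKM in day 20 gamergates (median 0.163), a log2 difference of 3.08 (limma, adjusted p = 0.00299). LOC105185160 ranged from 0.0387 to 147 FPKM at day 120 (median 29.1) and from 0.16 to 4.66 FPKM at day 20 (median 0.553), a log2 difference of 3.33 (adjusted p = 0.00948). In workers both went the other way, with medians of 0.355 and 0.999 FPKM in hunting workers at day 120 and 8.23 and 33.0 FPKM in workers at day 20. The difference between castes had unadjusted p of 6.44e-05 and 0.000152 and an adjusted p of 0.556 for both, so it did not pass over all genes. The next gene on that side, Hex70c, was not called in gamergates (log2 difference 0.43, adjusted p = 0.458).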
